A study of Homo sapiens with 3 samples.

Results

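The genes described here encode the subunits and close partners of Polycomb repressive complexes 1 and 2 (PRC1 and PRC2). The 37 gene symbols are a list of known subunits and partners with no measured value in its rule, although it was drawn up with earlier results of these data known, and all 37 were found among the 58735 genes of the deposited table. RNA was sequenced from HGC-27, a human gastric cancer cell line, grown in 1640 medium with fetal bovine serum. One library came from cells with a control hairpin (shControl, genotype given as WT) and 2 came from cells with hairpins against USP16 (shUSP16-1 and shUSP16-2, genotype given as shUSP16). The numbers 1 and 2 are not explained in the labels, so they may stand for hairpins, cultures or repeat libraries. All p-values therefore rest on a spread that may be purely technical. The labels of all 3 libraries also describe feeding with dexamethasone, isobutylmethylxanthine and insulin, and it is unclear whether these cells received it.

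PRC1 is an E3 ligase that places ubiquitin on histone H2A, and USP16 is one of the enzymes that take it off. RING1 and RNF2 are alternative catalytic subunits of PRC1, each paired with 1 of 6 PCGF proteins. In canonical PRC1 a CBX protein binds trimethylated histone H3 (H3K27me3) and a PHC protein polymerises, whereas in variant PRC1 RYBP or YAF2 takes the CBX position. PRC2 writes that H3 mark through EZH2 or EZH1, held by EED and SUZ12. PRC1 and PRC2 keep developmental genes silent, and EZH2 is known to be abundant in dividing and in many cancer cells.

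The targeted gene was measured first. USP16 (ENSG00000156256, plus strand of chromosome 21, 29024629 to 29054488, GRCh38) was at 6.28 FPKM in shControl, 4.29 in shUSP16-1 and 5.98 in shUSP16-2. FPKM is fragments per kilobase of gene scaled to library size. Relative to shControl, USP16 stood at 0.683 in shUSP16-1, with a 95% counting interval of 0.621 to 0.749. In shUSP16-2 it stood at 0.952, and its interval of 0.875 to 1.04 includes 1. These intervals are exact binomial ones and cover counting error only. The limma log2 difference of USP16 over both libraries was -0.26 (SE 0.20, adjusted p = 0.564). With sums of reads as totals the shUSP16-2 ratio was 0.876, and its interval of 0.805 to 0.953 lies below 1. Whether USP16 stood below shControl in shUSP16-2 beyond counting error thus depended on the scaling, so "shUSP16" below means the libraries labelled so, and each result is given for both. Each library held 29530581 to 31187845 reads, and the 37 Polycomb genes had 182 to 5667 reads each. Of 12 gastric or other epithelial marker genes, 11 were under 1 FPKM in all 3 libraries, among them CDH1, KRT18, KRT19 and MUC5AC. Among 5 mesenchymal markers, VIM ranged over the 3 libraries from 155 to 180 FPKM. The rest of that list was far lower, with ZEB1 at 7.5 to 7.9 and ZEB2 at 1.72 to 2.31 FPKM. FN1 was at 0.605 to 1.05 FPKM and CDH2 at 0.0135 to 0.0621, so the mesenchymal markers were not uniformly high. The summed level of 5 fibroblast markers was 99.6 FPKM in shControl, 110 in shUSP16-1 and 141 in shUSP16-2, and its part in the results below was not tested. COL1A1 was the largest part, at 52.2, 71.1 and 78.4 FPKM. COL1A1, COL1A2 and PDGFRB were higher in both shUSP16 libraries. DCN and LUM were lower in shUSP16-1 (8.71 and 22.9 FPKM) than in shControl (9.51 and 32.2) and higher in shUSP16-2 (12.2 and 38.3). Fewer cells of a type and less RNA per cell cannot be told apart in bulk RNA.

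Most Polycomb genes were slightly above shControl in both shUSP16 libraries, and 5 were below it in both. Among the 36 whose mean reached 1 FPKM, 24 were higher in both libraries, where 44.9% of all 13852 genes tested were. The 5 lower in both were CBX8, PHC3, PCGF3, EZH1 and PHC1, where 32.4% of all genes were lower in both. Against protein-coding genes alone, a closer match for these members, the backgrounds were 50.2% higher in both and 28.2% lower in both. The remaining 7 stood on opposite sides of shControl in the 2 libraries. In shUSP16-1 alone 26 were higher and 10 lower, and in shUSP16-2 alone 29 were higher and 7 lower. The shares of all genes in 1 library alone were not counted, so these counts have no background beside them. On the log2(FPKM + 1) scale the members' median difference from shControl was 0.12 for shUSP16-1 and 0.15 for shUSP16-2, against medians over all genes of 0.04 in both. Over protein-coding genes alone the medians were 0.063 and 0.070. Where the mean reached 5 FPKM, the members' medians were 0.156 and 0.167, against 0.101 and 0.123 over all such genes. The only member left out was CBX7, at 0.923 FPKM on average.

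Sizes were small. Ratios to shControl ran from 0.675 (CBX8 in shUSP16-2) to 1.44 (L3MBTL2 in shUSP16-2). No member was at least 1.5-fold higher in both on the log2(FPKM + 1) scale, where 0.960% of all genes were, or 1.5-fold lower in both, where 2.01% were. limma, a linear model with variances shared across genes, called 0 of the 36 at an adjusted p of 0.05 and 0 of all 13852 genes (0.00%). At an unadjusted p of 0.05 it held 5 members (BCOR, L3MBTL2, SCMH1 and SCML2 above, CBX8 below), where 14.5% of all genes passed, 8.71% above and 5.78% below, so the members' share was near the background. The lowest limma adjusted p among members was 0.292, for SCMH1, and the highest 0.969, for ASXL2. With 1 library against 2, an exact permutation test cannot go below 0.333. limma also called 0 members among genes of at least 5 FPKM (0.170% of them called), among protein-coding genes (0.434%) and on recovered reads by its voom method with the totals implied by FPKM (2.51%).

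How libraries were scaled changed how many members counted as higher or lower. The totals implied by the deposited FPKM were 1.08, 1.01 and 0.994 times the sums of reads in shControl, shUSP16-1 and shUSP16-2. Scaled to equal sums of reads, 17 members were higher in both (31.1% of all genes) and 11 lower in both (45.6%). The 17 were all among the 24, and the 5 lower genes named above stayed among the 11. Scaled by the median ratio over genes, 20 were higher in both (37.8%) and 8 lower (38.6%). Where the mean reached 5 FPKM, 18 of 29 members were higher in both, against 58.2% of all such genes, and 4 were lower in both, against 21.8%.

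**Figure D1:**
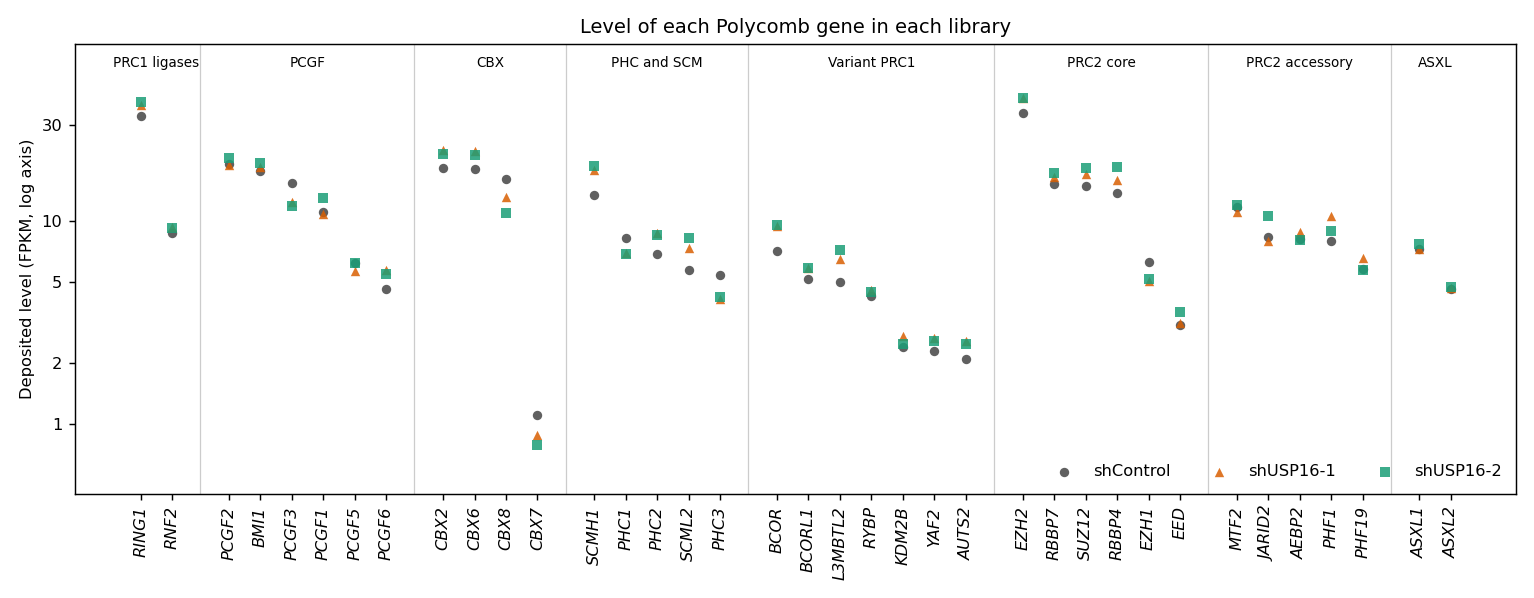
Deposited level of each of the 37 Polycomb genes in FPKM on a log axis, grouped by role, with 1 point for each library (shControl, shUSP16-1, shUSP16-2). EZH2 and RING1 lie highest, between 33.1 and 40.6 FPKM, and CBX7 lowest, between 0.787 and 1.10 FPKM, and differences between libraries are small beside differences between genes.

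The catalytic subunits of PRC1 differed in level more than between libraries. RING1 (ENSG00000204227, plus strand of chromosome 6, 33208495 to 33212722) was at 33.1 FPKM in shControl, 37.4 in shUSP16-1 and 38.8 in shUSP16-2. RNF2 (ENSG00000121481, plus strand of chromosome 1, 185045364 to 185102608) was at 8.76, 9.31 and 9.20 FPKM in the same order. Both were lowest in shControl on the deposited scale, and RING1 made up 79.1%, 80.1% and 80.8% of the pair's summed FPKM. The ratio to shControl of RING1 was 1.13 (1.06 to 1.20) and 1.17 (1.10 to 1.24), with a limma log2 difference of 0.19 (SE 0.11, adjusted p = 0.466). RNF2 had intervals that included 1 in both libraries, at 1.06 (0.979 to 1.15) and 1.05 (0.967 to 1.14), with a log2 difference of 0.07 (SE 0.12, limma adjusted p = 0.808). With sums of reads as totals, the RING1 ratios were 1.06 (0.993 to 1.12) and 1.08 (1.01 to 1.14). RNF2 was then at 0.996 and 0.966 of shControl.

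PCGF proteins define which kind of PRC1 is assembled. PCGF2 and BMI1 (also called PCGF4) belong to canonical PRC1, PCGF1 to the KDM2B and BCOR complex, PCGF3 and PCGF5 to the AUTS2 complexes and PCGF6 to the L3MBTL2 complex. PCGF2 led in shControl at 19.1 FPKM and BMI1 followed at 17.6. PCGF3 was at 15.3, PCGF1 at 11.0, PCGF5 at 6.18 and PCGF6 at 4.64 FPKM. The canonical partners stayed near these levels, with BMI1 at 18.6 in shUSP16-1 and 19.3 in shUSP16-2 and PCGF2 at 18.9 and 20.5 FPKM. BMI1 (ENSG00000168283, plus strand of chromosome 10, 22321211 to 22331484) had a log2 difference of 0.10 (SE 0.12, limma adjusted p = 0.717).

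PCGF3 was the family's exception. It had 15.3 FPKM from 3709 reads in shControl, 12.5 from 2773 in shUSP16-1 and 11.9 from 2740 in shUSP16-2 (ENSG00000185619, plus strand of chromosome 4, 705748 to 770640). Its 2 shUSP16 values lay close together and below shControl, at ratios of 0.814 (0.775 to 0.856) and 0.776 (0.738 to 0.815). The log2 difference was -0.31 (SE 0.12, limma adjusted p = 0.345). Its close paralog PCGF5 was at 5.67 and 6.24 FPKM, on either side of its 6.18 in shControl. PCGF6 was higher in both, at 5.73 and 5.50 FPKM, and PCGF1 was at 10.9 in shUSP16-1 and 13.0 in shUSP16-2, so the 2 libraries stood on opposite sides of its shControl level.

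Among the CBX readers of the H3 mark, CBX2 and CBX6 were higher in both shUSP16 libraries and CBX8 and CBX7 lower. CBX2 (ENSG00000173894, plus strand of chromosome 17, 79778132 to 79787983) was at 18.2 FPKM in shControl, 22.5 in shUSP16-1 and 21.4 in shUSP16-2. CBX6 (ENSG00000183741, minus strand of chromosome 22, 38861450 to 38872314) had nearly the same profile at 18.0, 22.2 and 21.2 FPKM. CBX8 (ENSG00000141570, minus strand of chromosome 17, 79792132 to 79801683) was at 16.2, 13.2 and 10.9 FPKM. CBX8 was thus the lowest of the 3 in every library, and furthest below CBX2 and CBX6 in shUSP16-2.

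CBX8 had the largest downward log2 difference among the members tested. Its ratio to shControl was 0.814 (0.763 to 0.868) in shUSP16-1 and 0.675 (0.631 to 0.722) in shUSP16-2, so both lay below shControl but the intervals of the 2 libraries did not overlap. The limma log2 difference was -0.40 (SE 0.15, adjusted p = 0.339), against 0.25 (SE 0.12, adjusted p = 0.395) for CBX2 and 0.25 (SE 0.12, adjusted p = 0.390) for CBX6. CBX8 was called by limma voom, which models recovered reads, with sums of reads as totals (log2 -0.54, limma voom adjusted p = 0.0364), a setting that called 4.02% of all genes. It was not called in the other 10 settings tried. CBX2 and CBX8 are neighbours whose annotated ends lie 4148 bases apart. For CBX7 the reads numbered 268, 196 and 182 in shControl, shUSP16-1 and shUSP16-2, with ratios of 0.797 (0.659 to 0.961) and 0.713 (0.588 to 0.864).

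PHC proteins, the polymerising subunits, also stood on opposite sides of shControl. PHC1 led in shControl at 8.25 FPKM, with 6.98 in shUSP16-1 and 6.90 in shUSP16-2, whereas PHC2 went from second place at 6.87 to first at 8.69 and 8.59 FPKM. PHC3 was lowest throughout at 5.44, 4.11 and 4.23 FPKM. For each PHC gene the 2 shUSP16 values lay close together and on 1 side of shControl. PHC2 (ENSG00000134686, minus strand of chromosome 1, 33323623 to 33431052) had a log2 difference of 0.29 (SE 0.12, limma adjusted p = 0.359). PHC3 (ENSG00000173889, minus strand of chromosome 3, 170086732 to 170181749) had -0.32 (SE 0.13, limma adjusted p = 0.353), and PHC1 (ENSG00000111752, plus strand of chromosome 12, 8913896 to 8941467) had -0.22 (SE 0.12, limma adjusted p = 0.443). PHC3 was called by voom with sums of reads (log2 -0.49, adjusted p = 0.0359) and in none of the other 9 settings that tested it. PHC1 shares 18.1% of its exon bases with M6PR on the opposite strand, where reads of the pair cannot be told apart, since no source used here gives the strand setting.

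SCMH1 and SCML2, SAM-domain relatives of the PHC proteins that associate with canonical PRC1, stood among the highest. SCMH1 (ENSG00000010803, minus strand of chromosome 1, 41027200 to 41242154) was at 13.4 FPKM in shControl, 17.9 in shUSP16-1 and 18.6 in shUSP16-2. SCML2 (ENSG00000102098, minus strand of chromosome X, 18239314 to 18354727) was at 5.74, 7.39 and 8.20 FPKM. Both shUSP16 libraries lay above shControl for each gene. SCMH1 had a log2 difference of 0.42 (SE 0.12, limma adjusted p = 0.292) and SCML2 one of 0.38 (SE 0.13, limma adjusted p = 0.319).

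**Figure D2:**
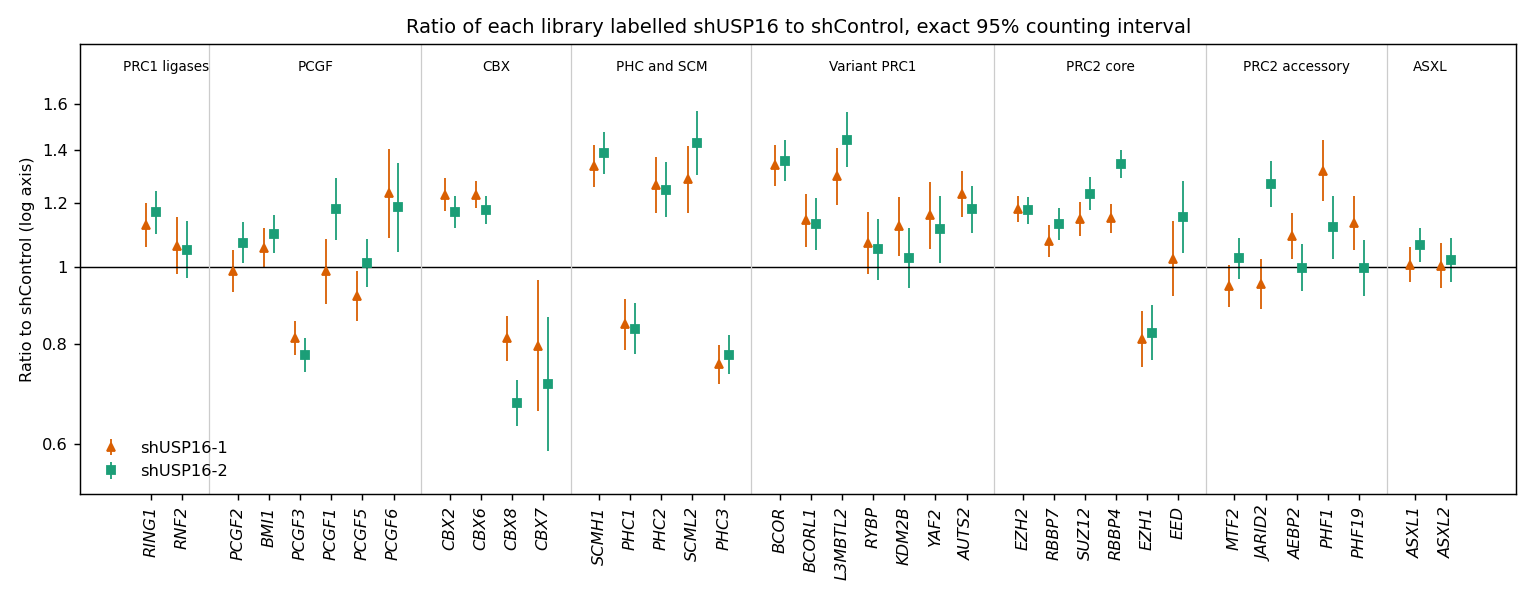
Ratio of each library labelled shUSP16 to shControl for the 37 Polycomb genes on a log axis, with exact 95% counting intervals, grouped by role. SCMH1, SCML2, BCOR and L3MBTL2 stand highest, and CBX8, CBX7, PHC3, PCGF3, EZH1 and PHC1 have both intervals below 1.

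Apart from the PCGF proteins described above, 7 listed genes encode subunits of variant PRC1. These 7 were higher in both shUSP16 libraries on the deposited scale, where 44.9% of all genes and 50.2% of protein-coding genes were. With equal sums of reads, 5 of them (AUTS2, BCOR, BCORL1, L3MBTL2 and YAF2) were higher in both, where 31.1% of all genes were. Of the PCGF proteins of variant complexes, PCGF6 was higher in both, PCGF3 lower in both, and PCGF1 and PCGF5 on opposite sides. BCOR, the scaffold that joins KDM2B and PCGF1 (ENSG00000183337, minus strand of chromosome X, 40049815 to 40177329), was at 7.08 FPKM in shControl, 9.49 in shUSP16-1 and 9.61 in shUSP16-2. L3MBTL2, a chromatin reader of the PCGF6 complex (ENSG00000100395, plus strand of chromosome 22, 41205205 to 41231271), was at 5.00, 6.48 and 7.21 FPKM. The 2 shUSP16 values of BCOR almost coincided, at ratios of 1.34 (1.26 to 1.42) and 1.36 (1.28 to 1.44), and those of L3MBTL2 were 1.30 (1.19 to 1.41) and 1.44 (1.33 to 1.56). limma gave log2 differences of 0.38 (SE 0.12, adjusted p = 0.299) for BCOR and 0.39 (SE 0.13, adjusted p = 0.319) for L3MBTL2. The BCOR paralog BCORL1 was at 5.16, 5.90 and 5.83 FPKM. The other members were low on the deposited scale: RYBP at 4.27 to 4.57, YAF2 at 2.29 to 2.66, KDM2B, which brings PRC1 to unmethylated CpG islands, at 2.40 to 2.70, and AUTS2 at 2.08 to 2.57 FPKM over the 3 libraries. That scale lowers genes with a long deposited length. For KDM2B the length was 13623 bases against 4595 for its principal coding transcript, and YAF2 and AUTS2 are taken up below. For RYBP the counting interval included 1 in both libraries, and for KDM2B in shUSP16-2.

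The PRC2 core was led by EZH2, the main methyltransferase. EZH2 (ENSG00000106462, minus strand of chromosome 7, 148807383 to 148884321) was at 34.4 FPKM in shControl, 40.6 in shUSP16-1 and 40.4 in shUSP16-2. EZH1, the less active paralog often found in resting cells (ENSG00000108799, minus strand of chromosome 17, 42700275 to 42745049), was at 6.26, 5.08 and 5.17 FPKM. The shUSP16 libraries nearly coincided for both genes, above shControl for EZH2 and below it for EZH1. Ratios were 1.18 (1.14 to 1.23) and 1.18 (1.13 to 1.22) for EZH2, and 0.812 (0.749 to 0.880) and 0.827 (0.764 to 0.895) for EZH1. The limma log2 differences were 0.23 (SE 0.11, adjusted p = 0.406) for EZH2 and -0.24 (SE 0.12, adjusted p = 0.421) for EZH1. Scaled by sums of reads, the EZH2 ratios were 1.11 and 1.08 and those of EZH1 0.761 in both.

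SUZ12, which anchors the accessory proteins (ENSG00000178691, plus strand of chromosome 17, 31937018 to 32001045), was at 14.9 FPKM in shControl, 17.1 in shUSP16-1 and 18.4 in shUSP16-2. Its log2 difference was 0.24 (SE 0.12, limma adjusted p = 0.427). SUZ12P1, a transcribed partial copy on the same chromosome (30709299 to 30790908), went the other way at 8.57, 7.57 and 7.26 FPKM and carried 33.2% as many reads as SUZ12 in shControl but 25.6% and 22.8% in shUSP16-1 and shUSP16-2. Summed, the ratio to shControl was 1.08 (1.04 to 1.13) and 1.14 (1.09 to 1.19), against 1.15 and 1.23 for SUZ12 alone. How reads were divided between the copies was not tested. EED, the reader of the H3 mark within PRC2 (ENSG00000074266, plus strand of chromosome 11, 86244544 to 86278813), was at 3.06, 3.14 and 3.54 FPKM with a log2 difference of 0.09 (SE 0.15, limma adjusted p = 0.798). Histone-binding RBBP4 was at 13.8, 15.9 and 18.6 FPKM and its paralog RBBP7 at 15.3, 16.4 and 17.3, all above shControl.

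The accessory proteins that divide PRC2 into PRC2.1 (PHF1, MTF2, PHF19) and PRC2.2 (JARID2, AEBP2) showed no shared direction. PHF1 alone was higher in both libraries, at 7.996 FPKM in shControl, 10.5 in shUSP16-1 and 8.95 in shUSP16-2. JARID2 was at 8.34, 7.94 and 10.6 FPKM, so the 2 shUSP16 libraries differed more from each other than their mean did from shControl. MTF2 was at 11.7, 11.1 and 12.01, AEBP2 at 8.13, 8.88 and 8.11, and PHF19 at 5.78, 6.56 and 5.76 FPKM. JARID2, MTF2, AEBP2 and PHF19 stood on opposite sides of shControl in the 2 libraries. The scaffolds of the H2A deubiquitinase BAP1 barely differed, with ASXL1 at 7.27, 7.31 and 7.73 and ASXL2 at 4.63, 4.65 and 4.72 FPKM.

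**Figure D3:**
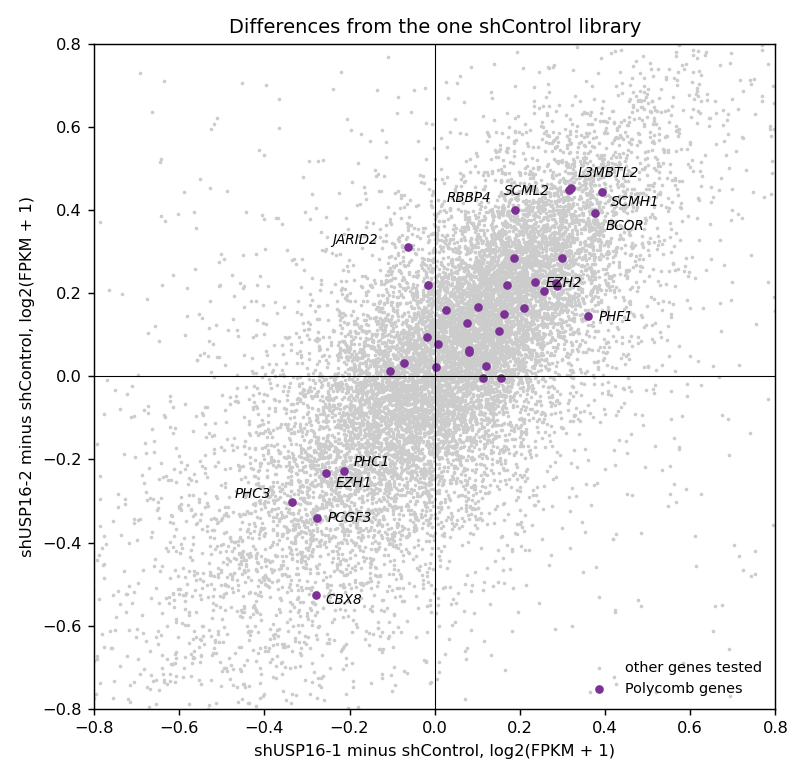
Difference of each gene from the one shControl library, shUSP16-1 on the horizontal and shUSP16-2 on the vertical axis, both on the log2(FPKM + 1) scale. The 36 Polycomb genes (purple) lie within the cloud of all genes tested (grey), with 5 in the lower left quadrant, and the axes share shControl, so a trend along the diagonal arises in part from that library. The 669 genes beyond 0.8 on either axis are not drawn.

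Differences between the 2 shUSP16 libraries often exceeded counting error. The exact interval of the ratio between shUSP16-1 and shUSP16-2 excluded 1 for 19 of the 36 Polycomb genes and for 50.0% of all genes. Against shControl it excluded 1 for 26 in shUSP16-1 (60.2% of all genes) and for 28 in shUSP16-2 (64.0%). In both libraries at once, 17 of the 36 were above (28.0% of all genes) and 5 below (15.1%). With sums of reads as totals, 11 were above in both (17.0%) and 7 below (25.0%). The Polycomb genes were more deeply covered than most, with a median of 1705 reads in shControl against 921 for all genes tested, which narrows their intervals.

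Ratios of paralogs within 1 library do not depend on how libraries are scaled. All 34 pairs within 11 families were compared, in reads per base, and in 12 pairs both shUSP16 intervals lay beyond that of shControl on the same side. Of these 12, 9 hold 1 of CBX8, EZH1, PCGF3, PHC1 and PHC3, the genes lower in both, so the pairs are not separate results. Pairs of other genes were not compared, so the count has no background beside it. EZH1 to EZH2 was 0.182 (0.172 to 0.193) in shControl, 0.125 (0.117 to 0.134) in shUSP16-1 and 0.128 (0.120 to 0.137) in shUSP16-2. CBX8 to CBX2 was 0.886 (0.839 to 0.935), then 0.586 (0.552 to 0.621) and 0.511 (0.480 to 0.543). PHC3 to PHC2 was 0.792 (0.739 to 0.849), then 0.473 (0.441 to 0.507) and 0.492 (0.460 to 0.527), and PHC2 to PHC1 0.833 (0.771 to 0.900), then 1.24 (1.15 to 1.35) and 1.24 (1.15 to 1.34). BCORL1 to BCOR was 0.728 (0.679 to 0.781), then 0.622 (0.582 to 0.664) and 0.607 (0.569 to 0.648). All of these pairs are among the 12 picked because shControl stood apart from both shUSP16 libraries, so that separation is no added result.

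The other 7 of the 12 involved PCGF3 (4 pairs), CBX7 (2 pairs) or CBX8 with CBX6. RNF2 to RING1 was not among them, at 0.264 (0.246 to 0.284), 0.249 (0.231 to 0.268) and 0.237 (0.221 to 0.255). Neither was BMI1 to PCGF2, at 0.919 (0.867 to 0.974), 0.983 (0.926 to 1.04) and 0.942 (0.890 to 0.998). The intervals of shUSP16-1 and shUSP16-2, libraries that may be repeats or different hairpins, lay apart in 9 of the 34 pairs. They lay apart in 17 pairs between shControl and shUSP16-1 and in 14 between shControl and shUSP16-2. With a single shControl library, no spread among controls can be set beside these ratios.

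**Figure D4:**
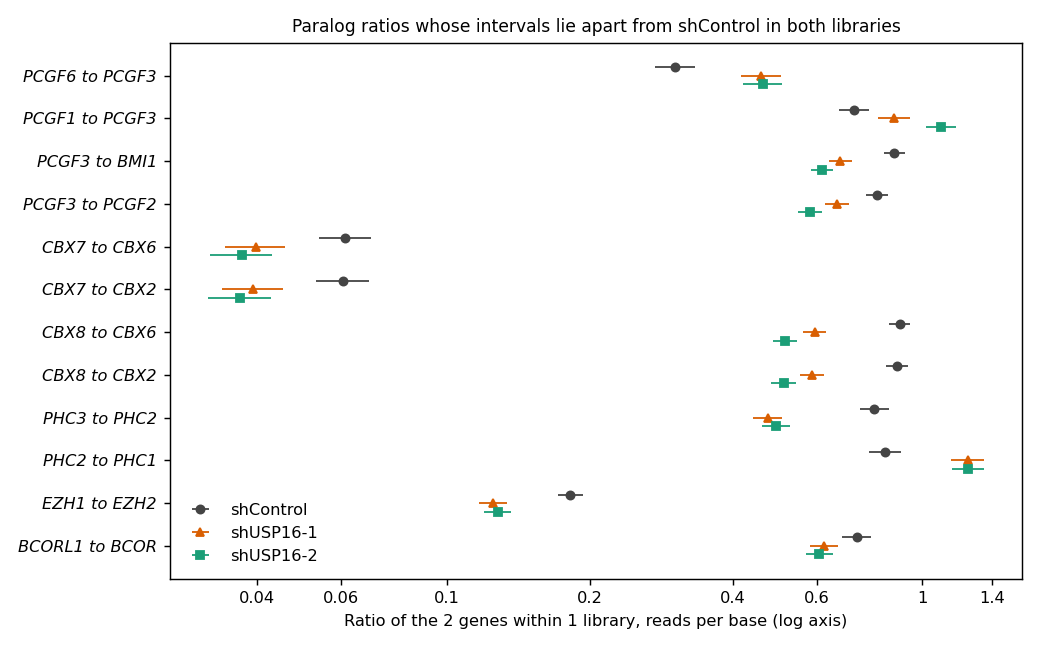
Ratio of 2 paralogs within each library, in reads per base on a log axis with exact 95% counting intervals, for the 12 of 34 pairs whose shUSP16 intervals both lie beyond the shControl interval. EZH1 to EZH2 goes from 0.182 in shControl to 0.125 and 0.128, and PHC2 to PHC1 from 0.833 to 1.24 in both shUSP16 libraries.

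The order of levels within a family rests on the gene length used. For all 37 genes the deposited length equalled the union of exons in GENCODE release 29, which is long where rare transcripts add exons. It was 5.22 times the principal coding transcript for YAF2, 3.67 times for AUTS2, 3.16 times for EED and 3.17 times for RBBP7. Per length of that transcript, an alternative added after seeing the data, YAF2 stood above RYBP in shControl (11.97 against 4.27) and RBBP7 above RBBP4 (48.3 against 16.5). EED stood at 9.67, just above EZH1 at 9.46, where on the deposited scale it was the lowest of the PRC2 core. BMI1 and PCGF2 were then at 21.97 and 21.95 in shControl, and BMI1 led with 23.2 against 21.7 in shUSP16-1 and 24.1 against 23.5 in shUSP16-2. CBX6 stood above CBX2 in shControl (23.6 against 22.3). RING1 over RNF2, EZH2 over EZH1 and BCOR over BCORL1 kept their order in all 3 libraries on both lengths.

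Promoter sequences are shown for EZH2 and EZH1 and for PHC2 and PHC3, paralogs on opposite sides of shControl, and for BCOR, among the members with the largest upward differences. PHC1, lower in both, held none of the letters searched and is not shown. RefSeq windows (GRCh38.p14) matched 35 of the 37 genes, with CBX2 and CBX8 unmatched, and the 250 bases before the first listed start were searched on both strands. The letters searched were TTTNNCGC for E2F, CACGTG for the E-box, CCAAT for the CCAAT box, GGGCGG for the GC box, CCGGAAG for ETS factors and TGANTCA for AP-1. Capitals mark any match, and adjoining matches can run together. The windows, each on the minus strand, are chr7:148884292-148884541 for EZH2, chr17:42745041-42745290 for EZH1, chr1:33431096-33431345 for PHC2, chr3:170181734-170181983 for PHC3 and chrX:40177278-40177527 for BCOR.
EZH2: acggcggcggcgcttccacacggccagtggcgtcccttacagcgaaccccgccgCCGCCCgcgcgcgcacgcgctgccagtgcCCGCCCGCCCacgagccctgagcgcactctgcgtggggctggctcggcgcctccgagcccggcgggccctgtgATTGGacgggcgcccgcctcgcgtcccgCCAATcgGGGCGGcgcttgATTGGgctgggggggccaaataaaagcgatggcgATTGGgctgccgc
EZH1: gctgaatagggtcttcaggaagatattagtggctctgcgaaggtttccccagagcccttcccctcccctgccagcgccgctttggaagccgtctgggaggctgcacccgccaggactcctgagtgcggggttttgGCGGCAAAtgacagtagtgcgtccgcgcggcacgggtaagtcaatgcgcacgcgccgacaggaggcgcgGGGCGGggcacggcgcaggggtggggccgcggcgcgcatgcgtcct
PHC2: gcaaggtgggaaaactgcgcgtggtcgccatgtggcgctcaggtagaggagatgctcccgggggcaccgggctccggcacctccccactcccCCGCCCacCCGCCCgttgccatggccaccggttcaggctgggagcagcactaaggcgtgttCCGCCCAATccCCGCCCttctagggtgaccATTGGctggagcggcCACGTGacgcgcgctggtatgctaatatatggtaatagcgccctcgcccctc
PHC3: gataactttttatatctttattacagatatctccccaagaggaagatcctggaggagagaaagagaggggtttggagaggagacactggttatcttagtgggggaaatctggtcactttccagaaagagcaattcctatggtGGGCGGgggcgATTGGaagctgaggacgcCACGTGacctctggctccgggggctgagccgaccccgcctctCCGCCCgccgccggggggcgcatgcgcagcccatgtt
BCOR: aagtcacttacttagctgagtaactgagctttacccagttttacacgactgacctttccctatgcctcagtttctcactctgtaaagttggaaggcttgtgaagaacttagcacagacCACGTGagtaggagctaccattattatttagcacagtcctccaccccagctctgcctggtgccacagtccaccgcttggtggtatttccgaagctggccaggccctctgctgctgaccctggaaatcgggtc

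The E-box CACGTG, the site read by MYC and its relatives, stood in the windows of 7 of the 35 genes (BCOR, BMI1, CBX6, PHC2, PHC3, RBBP4 and YAF2), or 20%, against 9.07% of 9147 genes tested and 6.49% of all 27305 promoters. PHC2, higher in both shUSP16 libraries, and PHC3, lower in both, each held 1 match. The E2F letters were found in AEBP2, EZH1, RBBP7 and SUZ12 (11.4% against 9.44% of genes tested and 5.93% of all promoters). The EZH2 window held 4 CCAAT matches and 38 CpG dinucleotides, and the EZH1 window no CCAAT match and 26 CpG dinucleotides. CCAAT was found in 37.1% of members against 35.7% of genes tested and 33.0% of all promoters, and GGGCGG in 71.4% against 68.7% and 42.3%. ETS letters stood in 11.4% of members against 16.8% and 8.82%, and AP-1 letters in 0 of 35 members against 3.40% and 6.60%. The median was 25 CpG dinucleotides a window for members, 21 for genes tested and 11 for all promoters, and a match is a description of letters only. The BCOR window held 5 CpG dinucleotides and the PCGF2 window 1. Only the first listed start of each gene was searched, and whether these cells use it was not tested.

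Other genes of the pathway were summarised from lists chosen beside the 37, and limma called 0 of their members at an adjusted p of 0.05. Of 21 tested PRC1 partners 17 were higher in both libraries, where 44.9% of all genes were, and 3 lower in both, where 32.4% were. Among protein-coding genes alone, the backgrounds for this list and those below were 50.2% higher in both and 28.2% lower in both. At a limma unadjusted p of 0.05, 3 of the PRC1 partners were higher, where 8.71% of all genes were. Their median log2 difference was 0.20, and 0.12 with equal sums of reads, against 0.042 and -0.049 over all genes. E2F6, the DNA-binding partner of the PCGF6 complex, was at 7.002 FPKM in shControl, 9.23 in shUSP16-1 and 8.88 in shUSP16-2. Its dimer partner TFDP1 was at 26.4, 32.6 and 39.6 FPKM, and USP7, a deubiquitinase of the PCGF1 complex, at 16.4, 20.2 and 20.9. Of 3 tested PRC2 partners 2 were higher in both (44.9% of all genes) and 1 lower in both (32.4%). Their median log2 difference was 0.055, and -0.0079 with equal sums of reads. Among them EPOP, a PRC2.1 partner, was at 12.9, 15.9 and 16.2 FPKM. In the BAP1 deubiquitinase complex, 4 of 7 tested genes were higher in both (44.9% of all genes) and 1 lower in both (32.4%), with BAP1 at 16.5, 20.7 and 19.8 FPKM and HCFC1 at 16.98, 23.4 and 23.3.

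Genes that counteract Polycomb were listed as well. Of 15 trithorax and H3K27 demethylase genes, 13 were higher in both libraries, against 44.9% of all genes and 50.2% of protein-coding genes, and 0 lower in both, against 32.4% and 28.2%. Their median log2 difference was 0.15, and 0.07 with equal sums of reads, against 0.042 and -0.049 over all genes. SMARCB1, a SWI/SNF subunit, was at 4.17 FPKM in shControl, 6.18 in shUSP16-1 and 6.45 in shUSP16-2, with the largest difference of this list (log2 0.50, SE 0.13, limma adjusted p = 0.280). SMARCC1 was at 15.8, 22.8 and 21.6 FPKM and SMARCA4, the SWI/SNF ATPase, at 28.4, 36.8 and 38.0. Among 7 tested H2A deubiquitinases 3 were higher in both (44.9% of all genes) and 1, USP16, lower in both (32.4%), and USP22 was at 31.3, 39.2 and 38.2 FPKM.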

How the data were processed

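RNA-seq levels of 3 HGC-27 libraries were deposited by the authors as FPKM with gene length and coordinates, per the file headers. No source used here gives the aligner, the counter or the strand setting. Mouse builds are named in the submitters' processing notes, but all 58735 gene IDs were in the human GENCODE release 29 (GRCh38), 58724 with equal coordinates, so human coordinates are used. FPKM times length was a whole multiple of 1 step per library for 100% of values above 0 (tolerance 0.01 reads), which gave reads. limma 3.58.1 (R 4.3.3) with a mean trend compared log2(FPKM + 1) over 13852 genes whose mean reached 1 FPKM, with Benjamini-Hochberg adjustment over all of them. The spread came from the 2 shUSP16 libraries (1 residual degree of freedom, prior 4.05), with equal variance taken for the single control. Folds on this scale understate low genes. Scripts were tested on simulated data.

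Ratio intervals are exact binomial 95% intervals of reads with the totals implied by FPKM. The members, lists and tests were chosen with earlier results of these data known. Named were RING1, RNF2, BMI1, EZH1, EZH2, EED and SUZ12, up to 8 members per direction by the smaller of the 2 differences, members called in any setting, and up to 3 genes per other list by the same measure, plus USP16. PCGF1, PCGF2, PCGF5, PCGF6, BCORL1 and other members were named to complete families, and the paralog pairs were chosen after values were seen as all pairs within families. EZHIP, a listed PRC2 partner, was not matched by symbol. One item is not reported here. Intervals came from scipy 1.17.1 under Python 3.11.15.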

Additional observations from a re-analysis of the deposited data

How the results depend on the processing

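limma called 0 of all genes and 0 members with a pseudocount of 0.1, no filter, equal sums, median-ratio scaling, no trend, a robust trend or an adjusted p of 0.1. It called 13 genes where the mean reached 5 FPKM, 48 among protein-coding genes, 348 with voom on implied totals and 557 with voom on sums of reads. Members were called only in the last, 2 of them: PHC3 at -0.49 (limma adjusted p = 0.0359) and CBX8 at -0.54 (0.0364); over 10 and 11 settings their adjusted p ran up to 0.402 and 0.485. Members lower in both went from 5 to 11 with equal sums and 8 with median ratios. With a shUSP16 library left out 7 to 10 were lower and 26 to 29 higher, counts without a share over all genes beside them. The member median, 0.11, was 0.019 with equal sums, 0.065 with median ratios and 0.12 to 0.15 without a shUSP16 library. The median over all genes moved too, at 0.042 on the deposited scale, -0.049 with equal sums and -0.0029 with median ratios. RNF2 reversed to -0.025 with equal sums (limma adjusted p = 0.941) and -0.028 with voom on sums of reads (0.951); of 18 named members the other 17 kept their sign. With no length correction the mean share in the family was 35.9% for RNF2 (20% deposited), 18.2% for EZH1 (12.6%), 16.3% for CBX8 (24.2%) and 47.6% for PHC3 (22.9%); by principal transcript RNF2 was at 21.4%. Leaving out a library gave 19.6% to 20.4%, 11.2% to 13.4%, 21.3% to 26.3% and 21.1% to 24.0%. With a shUSP16 library left out no limma test was possible, since no residual degrees of freedom remain. No paired analysis was possible because the single control carries no replicate number.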

Other observations

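Of 18 tested textbook Polycomb target genes, 6 were higher in both shUSP16 libraries (44.9% of all genes) and 8 lower in both (32.4%), and their median log2(FPKM + 1) difference was 0.03 for shUSP16-1 and -0.06 for shUSP16-2. limma called 0 of them, and 0 passed an unadjusted p of 0.05 in either direction. HOXA9 was at 1.80 FPKM in shControl, 1.23 in shUSP16-1 and 1.12 in shUSP16-2, and CDKN1C, a cyclin-dependent kinase inhibitor, at 2.71, 2.17 and 1.74. TBX3, a T-box factor, was at 10.3, 12.7 and 11.9 FPKM. CDKN2A, a classic Polycomb target, was at 67.8, 60.3 and 58.3 FPKM, and its neighbour CDKN2B was at 3.13, 2.61 and 2.84; both were chosen after their values were seen.

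Several members overlap other genes whose reads cannot be told apart without strand. PCGF2 shares 32.7% of its exon bases with CISD3 on the opposite strand, and RBBP4 18.0% with SYNC, which had 47 reads or fewer. The readthrough gene COMMD3-BMI1, which shares 23.4% of the BMI1 exon bases, was listed at 0 reads in all 3 libraries.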
